A study of Mus musculus with 6 samples.

Results

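The transforming growth factor beta (TGF-beta) genes described here are 10 of the 23420 genes listed for embryonic mouse lung, picked by their symbols. They are the ligands Tgfb1, Tgfb2 and Tgfb3, the receptors Tgfbr1, Tgfbr2 and Tgfbr3, the intracellular mediators Smad2 and Smad3, the inhibitory Smad7, and Tgfbi, which is neither a ligand, a receptor nor a SMAD but encodes a matrix protein named for its induction by TGF-beta. In lungs whose epithelium was made to lose Rptor, Tgfb1 and Tgfb3 were each higher by a linear fold of 1.20 and Tgfbr2 by a fold of 1.09, with no overlap between the groups, and Smad2 was lower without overlap at a fold of 0.956. Of all tested genes, 20.2% had groups that did not overlap. For Tgfb3 the log2 difference of 0.28 became 0.14 without control pool 3 and 0.38 without control pool 2. None of the 10 genes passed limma's test after adjustment over all genes. The 7 with an unadjusted p of 0.05 or more, Smad2 among them, had 95% intervals of the log2 difference between -0.23 and 0.25.

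TGF-beta ligands leave the cell in a latent complex with their own propeptide, which latent TGF-beta binding proteins tether to the matrix until the ligand is released. Free ligand is bound by the type II receptor TGFBR2, which activates the type I receptor TGFBR1, and TGFBR1 in turn phosphorylates SMAD2 and SMAD3, which enter the nucleus with SMAD4 and change the transcription of target genes, among them the feedback inhibitor Smad7. In the embryonic lung the pathway acts between epithelium and mesenchyme, where it is known for restraining branching and for promoting deposition of extracellular matrix.

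RNA-Seq was performed on whole lungs at E11.5dpc (days post coitus), when branching is under way, to learn which genes in the lung depend on mTORC1, the growth-controlling kinase complex that needs the protein Raptor, the product of Rptor. The 3 control pools were labelled Rptor f/+; Shh Cre/+ and the 3 mutant pools Rptor f/f; Shh Cre/+ (a heading in the supplement of the study names the controls by Shh Cre/+ alone). Every library is thus a pool, made from 3 or 4 organs. Animals of both groups carried a single Cre allele at Shh, so the controls too had lost a copy of Shh and, by their label, carried 1 floxed copy of Rptor. The paper reports that this Cre makes floxed Rptor null in the lung epithelium. Controls so labelled would thus keep 1 working copy there, and the mutants none. At this stage Cre from Shh acts in the lung epithelium, so Rptor was left intact in mesenchyme, mesothelium, vessels and blood cells, and an epithelial change was seen here through RNA of the whole organ. In such bulk samples fewer cells of a type and less RNA per cell cannot be told apart. Embryos of both sexes were collected, the sex and litter of the embryos in each pool were not given in the sources used here, and p-values measure the spread between pools.

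The depth was even, at 20197642 to 21153846 recovered reads in the control libraries and 20355380 to 21276090 in the mutant libraries. Lung identity was seen in the lung epithelial regulator Nkx2-1, with a mean normalized count of 2433 in control and 2029 in mutant pools, and in the mesenchymal regulators Foxf1 (5266 and 5394) and Tbx4 (3729 and 3975). Rptor itself had 2126, 2193 and 2279 normalized counts in control pools 1 to 3 and 2023, 2137 and 2148 in the mutant pools, a log2 difference of -0.065 with an adjusted p of 0.584 by limma. The groups overlapped. Counts per gene of the whole lung do not separate the floxed part of the transcript or the epithelium, so they are no check of recombination. Control pool 3 lay apart from its group more often than the others did. Among genes with a mean of at least 100 it was the pool farthest from the control mean for 50.6%, and it was the farthest for 7 of the 10 TGF-beta genes, so results are also given without it. Over all genes of that mean, its root mean square log2 deviation from the other control pools was 0.221. Control pool 2 was close to that, at 0.199, and control pool 1 was at 0.107. Among mutant pools, pool 2 was the farthest for 6 of the 10 TGF-beta genes.

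Tgfb1 encodes the TGF-beta isoform best known from blood vessels, blood cells and platelets. It had 909, 949 and 888 normalized counts in control pools 1 to 3 and 1076, 1077 and 1139 in mutant pools 1 to 3. Every mutant pool exceeded every control pool, and the gap between the groups was larger than the spread within either. The mean went from 915 ± 31.4 to 1097 ± 36.0 (SD, n = 3 pools each). On the log2 scale of normalized count + 1 the difference was 0.26 (SE 0.05, 95% interval 0.14 to 0.38), with an unadjusted p of 0.00058 and an adjusted p of 0.0710 by limma. Thus Tgfb1 just missed the threshold of 0.05. It passed in 2 of 14 alternatives, with an adjusted p of 0.0329 by limma without control pool 3 and of 0.0386 by DESeq2 on recovered reads, and over the others the adjusted p went up to 0.378.

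Tgfb2, the isoform needed for normal development of the heart, had 3971, 3796 and 4472 normalized counts in the control pools and 4185, 4022 and 4172 in the mutant pools. Control pool 3 was the highest of the 6 and control pool 2 the lowest, and the mutant pools lay between them. The log2 difference was 0.020 (95% interval -0.11 to 0.15, limma adjusted p = 0.912), from means of 4080 ± 351 and 4126 ± 90.8 (SD, n = 3). Without control pool 3 it was 0.088 with an adjusted p of 0.272 by limma, and without control pool 2 it turned to -0.031.

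Tgfb3, known for its roles in palate fusion and in lung maturation, had 1173, 1287 and 920 normalized counts in the control pools and 1334, 1352 and 1381 in the mutant pools. The mutant pools were tightly grouped above the controls, and control pool 3 was far below the other two controls. Means were 1127 ± 188 and 1356 ± 23.5 (SD, n = 3), a log2 difference of 0.28 (SE 0.10, 95% interval 0.06 to 0.51). Its unadjusted p was 0.0194 and its limma adjusted p was 0.253. The size depended on which control pool was left out. Without control pool 3 the log2 difference was 0.14, with an unadjusted p of 0.0187 and an adjusted p of 0.186 by limma. Leaving out control pool 2 instead gave 0.38, with an unadjusted p of 0.00144 and an adjusted p of 0.0756 by limma.

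**Figure D1:**
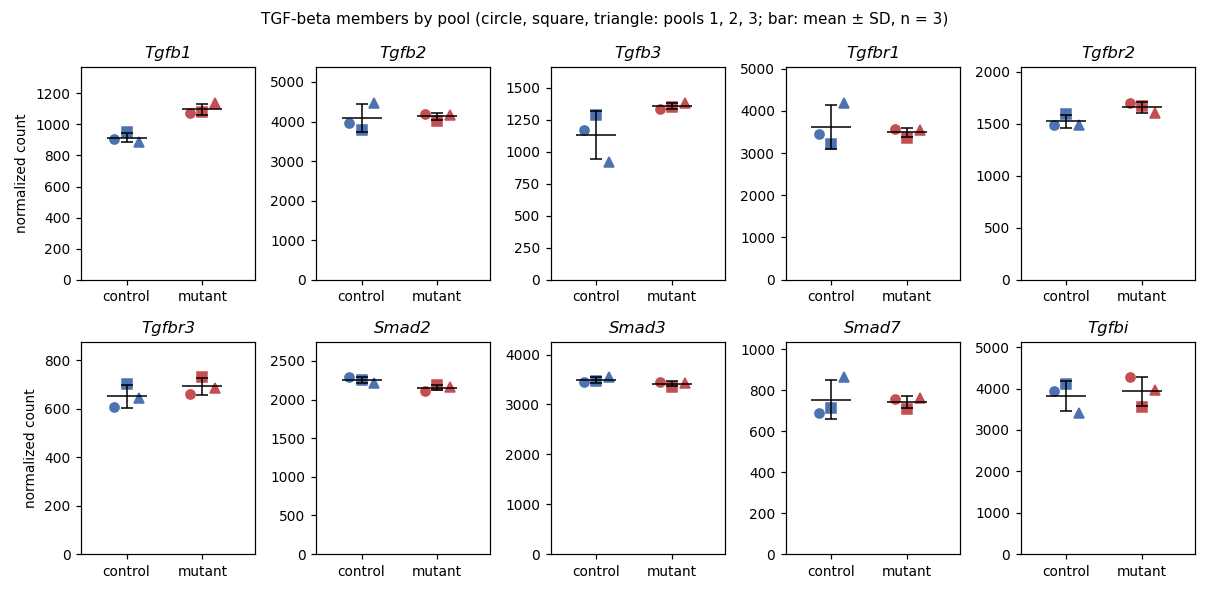
Normalized counts (vertical axes, from 0) of the 10 TGF-beta genes in the 3 control pools (blue) and 3 mutant pools (red), with black bars for the mean ± SD. Each mutant pool lay above each control pool for Tgfb1, Tgfb3 and Tgfbr2 and below them for Smad2, and control pool 3 (blue triangle) stood off for Tgfb2, Tgfb3, Tgfbr1, Smad7 and Tgfbi.

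Levels were compared per kilobase of exon, with all annotated exons of a gene joined (5.042 kb for Tgfb1, 5.791 for Tgfb2 and 3.383 for Tgfb3). The transcripts in use may be shorter, which would change the shares. On this scale Tgfb2 was the most abundant of the ligands. It made up 57.8% ± 4.99 of the summed ligand level in control pools and 53.5% ± 0.674 in mutant pools (SD, n = 3), and its groups overlapped. The share of Tgfb1 was 14.9%, 15.4% and 14.4% in control pools 1 to 3 and 16.0%, 16.3% and 16.7% in mutant pools 1 to 3, so every mutant pool was above every control pool. Tgfb3 contributed 27.3% ± 4.53 and 30.1% ± 0.459, with overlap. As a log2 ratio of normalized counts, Tgfb1 over Tgfb2 was -2.13, -2.00 and -2.33 in the control pools and -1.96, -1.90 and -1.87 in the mutant pools. These did not overlap either, whereas Tgfb3 over Tgfb2 (control mean -1.87, mutant mean -1.61) and Tgfb3 over Tgfb1 (0.29 and 0.31) did. The shares and ratios are given as descriptions without a test.

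The sequences just upstream of the starts of Tgfb1 and Tgfb2 are shown because this is the pair of ligands whose ratio separated the groups. Both are 250 bases ending at the base before the RefSeq transcript start in GRCm38.p6, written 5′ to 3′ on the strand of the gene. Capitals mark the GC box GGGCGG, read on either strand, in Tgfb1, and the TATA box TATAAA and a short SMAD-binding element CAGACA in Tgfb2.
Tgfb1, chr7:25686752-25687001, plus strand: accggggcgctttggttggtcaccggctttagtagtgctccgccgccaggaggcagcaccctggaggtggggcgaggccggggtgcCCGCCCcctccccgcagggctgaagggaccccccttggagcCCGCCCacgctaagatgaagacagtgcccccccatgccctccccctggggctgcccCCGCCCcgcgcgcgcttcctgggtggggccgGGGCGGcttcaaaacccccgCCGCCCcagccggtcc
Tgfb2, chr1:186705990-186706239, minus strand: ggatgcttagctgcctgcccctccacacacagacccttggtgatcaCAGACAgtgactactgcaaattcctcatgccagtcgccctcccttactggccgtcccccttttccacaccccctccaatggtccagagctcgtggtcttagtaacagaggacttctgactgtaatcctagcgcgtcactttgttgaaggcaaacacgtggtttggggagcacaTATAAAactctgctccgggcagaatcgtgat

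The Tgfb1 window was 75.2% G and C and held 5 GC boxes, whose first bases lay 164, 123, 67, 36 and 16 bases before the start. At least 4 matches were found in 4.09% of the 32851 promoter windows of this length, and at least 1 in 32.7%. The Tgfb2 window was 53.6% G and C, near the median of 52.4% over all windows, with TATAAA 31 bases before the start (12.4% of windows hold it) and CAGACA 204 bases before it (17.1% of windows). The palindromic SMAD-binding element GTCTAGAC (0.167% of windows), the AP-1 site TGACTCA (4.46%) and the CRE TGACGTCA (1.55%) were searched on both strands as well and were in neither window, and no match overlapped another. Windows were found for 6 of the 10 genes, namely Tgfb1, Tgfb2, Tgfbr1 with 2 starts, Tgfbr2, Smad3 and Tgfbi. A match of letters is a description and not a measured binding site.

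Tgfbr2, the type II receptor that binds ligand first, had 1485, 1593 and 1489 normalized counts in the control pools and 1701, 1675 and 1599 in the mutant pools. The lowest mutant pool was just above the highest control pool. Means were 1522 ± 61.2 and 1658 ± 53.1 (SD, n = 3), and the log2 difference was 0.12 (SE 0.05, 95% interval 0.01 to 0.23). It had an unadjusted p of 0.0312 and a limma adjusted p of 0.307, and the unadjusted p was under 0.05 in 9 of 14 alternatives.

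Tgfbr1, the type I receptor kinase, had 3452, 3208 and 4190 normalized counts in the control pools and 3565, 3365 and 3540 in the mutant pools. The mutant pools fell within the range of the controls, of which pool 3 was the highest. Its log2 difference was -0.042 (95% interval -0.23 to 0.14, limma adjusted p = 0.867), and without control pool 3 it was 0.068. Tgfbr3, or betaglycan, the co-receptor that presents ligand and above all TGF-beta 2, had 607, 703 and 645 normalized counts in the control pools and 661, 729 and 685 in the mutant pools. The groups overlapped and the log2 difference was 0.088 (95% interval -0.070 to 0.25, limma adjusted p = 0.639). It was 0.038 without control pool 1, 0.049 without mutant pool 2 and 0.14 without control pool 2. The log2 ratio of Tgfbr2 over Tgfbr1 averaged -1.24 in control and -1.07 in mutant pools, with overlap.

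For the 3 SMAD genes the differences were small. Smad2, a receptor-activated mediator, had 2288, 2252 and 2212 normalized counts in the control pools and 2115, 2183 and 2156 in the mutant pools. Each mutant pool was below each control pool, yet the gap was small. Means were 2250 ± 38.0 and 2152 ± 34.5 (SD, n = 3), and the log2 difference was -0.065 (95% interval -0.16 to 0.026, limma adjusted p = 0.524).

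Smad3, the mediator that binds DNA directly, had 3442, 3478 and 3543 normalized counts in the control pools and 3448, 3353 and 3427 in the mutant pools. The groups overlapped and its log2 difference was -0.033 (95% interval -0.12 to 0.051, limma adjusted p = 0.752). Smad7, which blocks the type I receptor and is itself induced by the pathway, had 690, 711 and 863 normalized counts in the control pools and 757, 706 and 761 in the mutant pools. Control pool 3 was the highest of the 6, and the log2 difference was -0.019 (95% interval -0.21 to 0.17, limma adjusted p = 0.945). Without control pool 3 it was 0.082. The log2 ratio of Smad3 over Smad2 was 0.63 on average in control and 0.66 in mutant pools, and that of Smad7 over Smad3 was -2.22 and -2.20, both with overlapping groups.

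Tgfbi, the secreted TGF-beta-induced matrix protein, had 3934, 4103 and 3410 normalized counts in the control pools and 4271, 3557 and 3964 in the mutant pools. Both groups spread widely and overlapped, with control pool 3 the lowest of the 6. The log2 difference was 0.043 (95% interval -0.13 to 0.22, limma adjusted p = 0.858), and it was -0.036 without control pool 3.

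**Figure D2:**
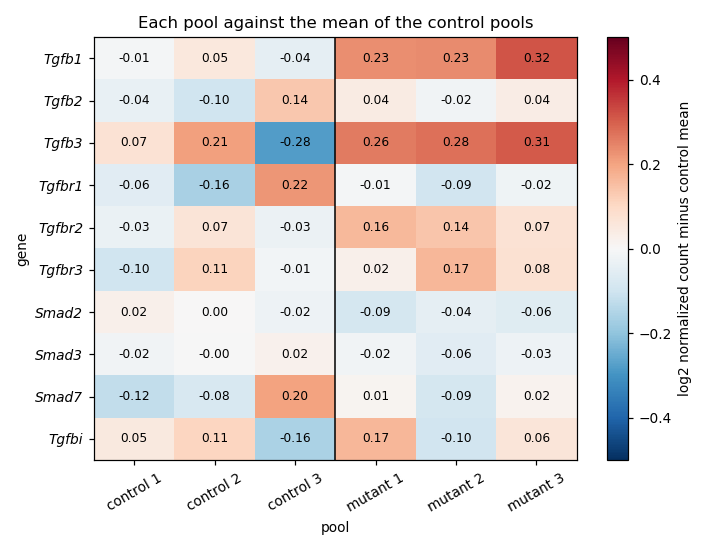
Log2 normalized count of each TGF-beta gene (vertical axis) in each pool (horizontal axis) minus the mean of the 3 control pools, with red for higher and blue for lower values. The mutant columns were between 0.23 and 0.32 for Tgfb1, and the third control column held the values farthest from 0 among controls for 7 of the 10 genes.

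Counted together, 3 of the 10 genes had an unadjusted p under 0.05, all of them higher in the mutant, against 13.6% of the 17168 tested genes (6.67% higher). After adjustment 0 of 10 passed by limma, against 0.501% of tested genes, while edgeR called 0 and DESeq2 called 1 (0.539% and 1.94% of the genes they tested). Without control pool 3, limma called Tgfb1 after adjustment, where 2.75% of tested genes passed. In that comparison Tgfb2 joined Tgfb1, Tgfb3 and Tgfbr2 with an unadjusted p under 0.05 (0.0418), all 4 higher, where 8.37% of tested genes were higher and 8.58% lower at that threshold. The groups did not overlap for 3 genes that were higher and for 1 that was lower in the mutant, against 9.77% and 10.5% of tested genes in those directions (20.2% in either). The median log2 difference of the 10 genes was 0.03, beside -0.002 over all tested genes. All 10 genes passed the filter on low values.

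The order of levels was taken per kilobase of all annotated exons joined, to bring genes of different length closer to a common scale. Where the transcript in use is shorter than this, a gene is ranked too low, so the order depends on that length. In control pools Tgfbi stood highest with 1012 ± 95.8 normalized counts per kilobase (SD, n = 3), followed by Tgfb2 with 704 ± 60.6, Smad3 with 629 ± 9.30 and Tgfbr1 with 553 ± 78.2. Tgfb3 followed with 333 ± 55.5 and Smad2 with 256 ± 4.33. Below them came Tgfbr2 with 186 ± 7.48, Tgfb1 with 182 ± 6.23, Smad7 with 167 ± 20.9 and Tgfbr3 with 99.5 ± 7.34. The neighbours Smad3 and Tgfbr1, Tgfbr2 and Tgfb1, and Tgfb1 and Smad7 had overlapping control pools and could not be ranked against each other. In the mutant pools Tgfb1, with 218 ± 7.14, came above Tgfbr2, with 203 ± 6.48. All 10 genes were expressed above the median gene, from percentile 52.6 of tested genes for Tgfbr3 to percentile 94.4 for Tgfbi.

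**Figure D3:**
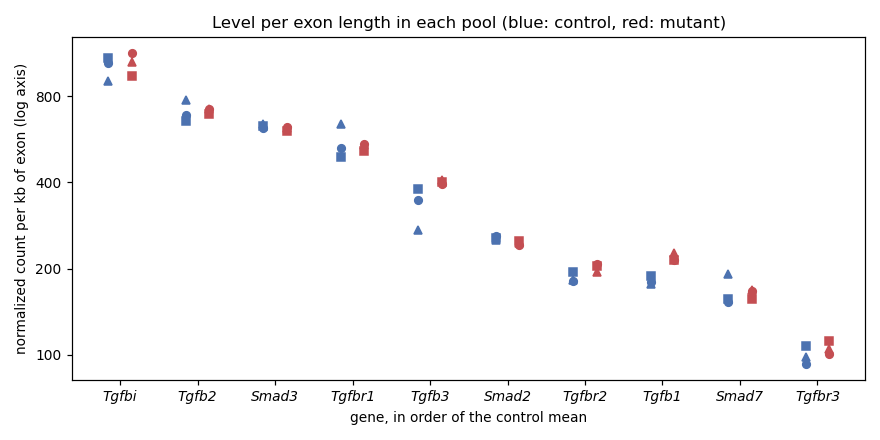
Normalized count per kilobase of exon (logarithmic vertical axis) of each TGF-beta gene, in order of the control mean, for the control pools (blue) and mutant pools (red), with circles, squares and triangles for pools 1, 2 and 3. Levels ran from about 100 for Tgfbr3 (control mean 99.5) to 1012 for Tgfbi, and the red points lay above the blue ones for Tgfb1, Tgfb3 and Tgfbr2.

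Genes with the most similar course over the 6 pools were sought for Tgfb1 and Tgfb3, the 2 members with the lowest p, by the root mean square distance of centred log2 values among genes with a mean of at least 100. For Tgfb1 these were Scp2, a sterol carrier protein, at 0.0196, Rab43, a small GTPase, at 0.0231, and Vps37d, a subunit of the endosomal sorting machinery, at 0.0277. For Tgfb3 they were Osbpl10, an oxysterol-binding protein, at 0.0237, Gyg, which primes glycogen synthesis, at 0.0299, and Rftn2, a lipid raft protein, at 0.0319. Because these 6 genes were picked for likeness to 2 members that were higher in the mutant, their direction was set by that choice. Their own tests thus add no support for it. Scp2 had 1522, 1597 and 1464 normalized counts in the control pools and 1838, 1842 and 1890 in the mutant pools, and of these 6 genes it alone passed the threshold (log2 difference 0.28, limma adjusted p = 0.0398). That call was lost in 6 of 14 alternatives, among them leaving out control pool 1 (adjusted p = 0.245), mutant pool 1 (0.146), mutant pool 2 (0.161) or mutant pool 3 (0.269).

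Upstream of the receptors, 22 genes of ligand latency and activation were tested, of which 2 rose and 0 fell after adjustment. This list and those that follow were chosen with earlier results of these data known, so their counts are descriptions. Of all tested genes 0.186% rose and 0.315% fell. At an unadjusted p under 0.05, 4 of the 22 were higher and 1 was lower, against 6.67% and 6.89% of all tested genes. The median log2 difference of the list was 0.07. Ltbp4, a latent TGF-beta binding protein of elastic fibres, had 1841, 1894 and 1910 normalized counts in the control pools and 2539, 2486 and 2580 in the mutant pools. The groups were far apart compared with their spread. Its log2 difference of 0.43 (95% interval 0.34 to 0.52) had an adjusted p of 0.00728 by limma, and the call was lost without control pool 1 (adjusted p = 0.125), without mutant pool 3 (0.0710) and without the variance trend (0.117).

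Ltbp3, which assists the secretion of latent TGF-beta, had 1510, 1684 and 1508 normalized counts in the control pools and 1864, 1989 and 1958 in the mutant pools. All mutant pools were higher. Its log2 difference was 0.31 (95% interval 0.18 to 0.43) with an adjusted p of 0.0495 by limma, which stayed under 0.05 in 5 of 14 alternatives and went up to 0.295 without mutant pool 3. Leaving out control pool 1 gave 0.271, mutant pool 1 gave 0.139 and mutant pool 2 gave 0.212, all above the threshold. The 3 other genes of this list with an unadjusted p under 0.05 were Emilin1 (log2 difference 0.20), which limits processing of the TGF-beta precursor, Bmp1 (0.11), a protease that can free latent complexes, and Thbs1 (-0.25), an activator of latent ligand. These 3, with limma adjusted p values of 0.0987, 0.322 and 0.303, were named after their values were seen. The same holds for Itgb6, the beta subunit of an epithelial integrin that activates TGF-beta, which was sparse, with 11.8, 21.7 and 11.9 normalized counts in the control pools and 10.2, 5.88 and 13.7 in the mutant pools.

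Among 22 regulators at the receptor level, 0 passed limma's adjusted threshold, and 2 were higher and 0 lower at an unadjusted p under 0.05. Of all tested genes 6.67% were higher and 6.89% lower at that threshold, so the count was near the share. The median log2 difference of the list was 0.06. Acvrl1, an endothelial type I receptor, had a log2 difference of 0.23 (unadjusted p = 0.00497, limma adjusted p = 0.158), and its mean went from 785 ± 59.0 to 921 ± 30.1 (SD). Dab2, an adaptor of receptor trafficking, had 0.12 (limma adjusted p = 0.305) and Bgn, the ligand-binding proteoglycan biglycan, had 0.14 (0.389), which was 0.064 without control pool 3 and 0.22 without control pool 2. Eng, the endothelial co-receptor endoglin, named after its values were seen, was at 0.14 (0.399).

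In the nucleus, 21 SMAD partners and repressors gave 0 calls after adjustment by limma, with a median of -0.02. At an unadjusted p under 0.05, 1 was higher and 1 lower, near the 6.67% and 6.89% of all tested genes. Zeb2, a SMAD-binding repressor, had a log2 difference of 0.19 (95% interval 0.07 to 0.32, limma adjusted p = 0.176). Foxh1, a partner of SMAD2 in the early embryo, was close to absent, with 2.95, 4.13 and 4.97 normalized counts in the control pools and 0, 0.980 and 0.982 in the mutant pools. Ski, a repressor of SMAD complexes, was at 0.088 (limma adjusted p = 0.40). Smad4, the shared partner, and Smad6, the inhibitor of the BMP branch, both named after their values were seen, had 0.01 and 0.07 (limma adjusted p = 0.959 and 0.563).

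The activin and nodal branch shares SMAD2 and SMAD3, and 15 of its 17 listed genes could be tested. By limma 0 passed after adjustment, 1 was lower and 0 were higher at an unadjusted p under 0.05, and the median was -0.08. Of all tested genes 6.89% were lower and 6.67% higher at that threshold, so the count was near the share. The lower gene was Acvr1c, a nodal receptor at very low level (means 6.36 and 2.63, log2 difference -1.11). Inhbb, the activin beta B subunit, had means of 16.3 ± 8.31 and 8.60 ± 1.34, and Acvr2b, an activin type II receptor, had 516 ± 87.5 and 439 ± 64.6 (SD, n = 3), neither with an unadjusted p under 0.05. Of 16 genes of SMAD-independent TGF-beta signalling, 0 passed after adjustment, and Shc1, an adaptor to the Ras pathway, was higher (0.14, limma adjusted p = 0.199) and Map2k4, a stress kinase, lower (-0.09, limma adjusted p = 0.368) at an unadjusted p under 0.05. These counts of 1 in 16 in each direction were likewise near the shares over all tested genes. Mapk14, which encodes p38 alpha, was at -0.10 (limma adjusted p = 0.453).

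The list of known TGF-beta target genes, like the other lists, was chosen with earlier results of these data known, so its counts are descriptions. Of its 35 genes 4 rose and 0 fell after adjustment by limma, against 0.186% and 0.315% of all tested genes. At an unadjusted p under 0.05, 10 were higher and 0 lower, against 6.67% and 6.89%, and the median log2 difference was 0.06. The 4 are genes known from mesenchyme, though counts of whole lungs do not show which cells they came from. Col1a1, Col1a2 and Col3a1 encode fibrillar collagen chains, and Cdh2 encodes N-cadherin, a cell adhesion protein of mesenchyme.

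Col1a1, a chain of type I collagen, had 18948, 21042 and 19410 normalized counts in the control pools and 25994, 30254 and 27237 in the mutant pools, with a wide gap between the groups. Its log2 difference was 0.49 (95% interval 0.36 to 0.62, limma adjusted p = 0.0125). Col1a2, the partner chain, was at 0.34 (adjusted p = 0.0128), Col3a1, of type III collagen, at 0.26 (0.0470), and Cdh2 at 0.25 (0.0415), all by limma. Leaving out control pool 1 or mutant pool 3 ended each of these calls, with adjusted p between 0.112 and 0.269. Those of Col1a2, Col3a1 and Cdh2 were also lost without mutant pool 1 or mutant pool 2, with adjusted p from 0.0775 to 0.213.

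Other targets often used as readouts of the pathway, named after their values were seen, did not pass the test. Ctgf, a matricellular protein, was at -0.11 (-0.42 to 0.19), Pmepa1, a feedback inhibitor, at 0.03 (-0.11 to 0.17), and Skil, another feedback repressor, at -0.03 (-0.30 to 0.25), given as log2 differences with 95% intervals.

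**Figure D4:**
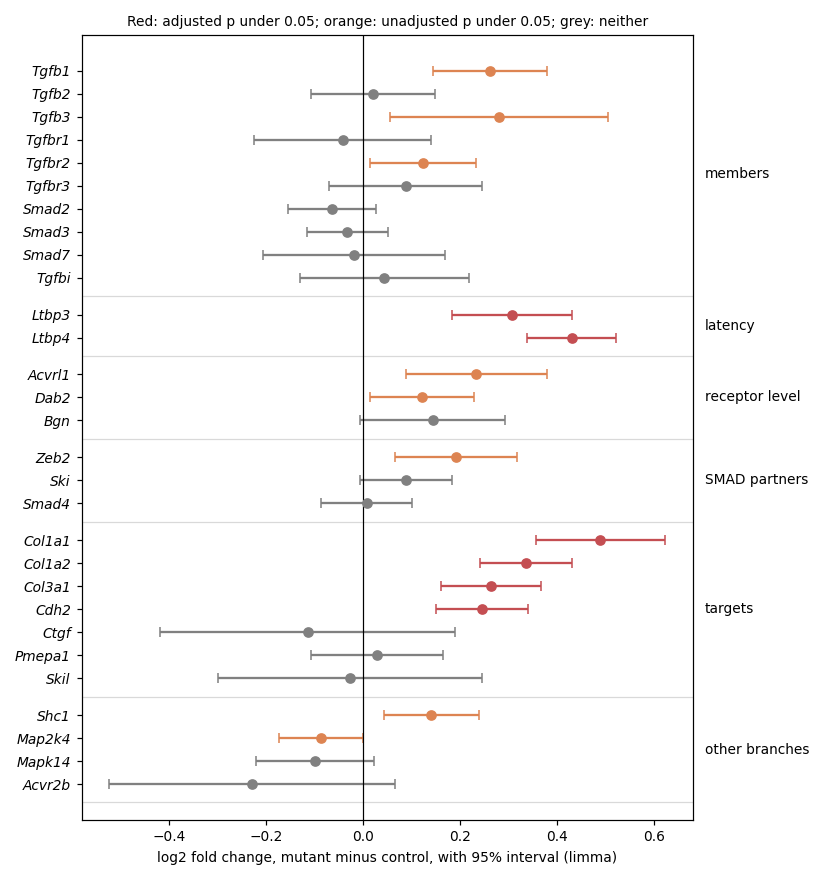
Log2 difference between mutant and control pools (horizontal axis) with its 95% interval from limma for the 10 TGF-beta genes and for named genes of the pathway lists (vertical axis). Among those drawn, Ltbp3, Ltbp4, Col1a1, Col1a2, Col3a1 and Cdh2 (red) had an adjusted p under 0.05, and of the 10 TGF-beta genes Tgfb1, Tgfb3 and Tgfbr2 (orange) had an unadjusted p under 0.05 alone.

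Without control pool 3 the counts of these lists were larger. After adjustment 4 latency genes were then higher and 1 lower and 7 targets were higher and 0 lower, while the whole table gave 183 higher and 285 lower, and the other 4 lists still gave 0. The median log2 difference was 0.08 for the latency genes and 0.10 for the targets.

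Markers of cell types were read from the same comparison, and their lists differed in direction and size. Of all tested genes, 6.67% were higher and 6.89% lower at an unadjusted p under 0.05 by limma, and 0.186% and 0.315% after adjustment. Of 20 epithelial markers, 7 fell and 0 rose after adjustment by limma, 16 were lower and 1 higher at an unadjusted p under 0.05, and their summed normalized count was 23871 to 29055 in control and 20251 to 21448 in mutant pools. Of 15 lung mesenchyme markers, 5 were higher and 1 lower at an unadjusted p under 0.05, and Fgf10, the branching signal, rose after adjustment (log2 difference 0.64, limma adjusted p = 0.0322). Their summed count was 43049 to 44373 in control and 44711 to 46992 in mutant pools.

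Endothelial cells, megakaryocytes and other blood cells are known sources of Tgfb1, and their markers were examined too. Of 12 endothelial markers 6 were higher and 0 lower at an unadjusted p under 0.05, with summed counts of 14328 to 16348 in control and 16589 to 17260 in mutant pools and a median log2 difference of 0.17. Megakaryocyte markers, of which 3 of 6 were higher and 0 lower, had sums of 721 to 1052 and 1092 to 1137. Haematopoietic markers, with 1 of 11 higher and 0 lower, overlapped at 2707 to 3754 and 3545 to 3705. At the unadjusted threshold 6.67% of all tested genes were higher and 6.89% lower, and the haematopoietic count is near that share. None of these 3 lists had a gene that passed after adjustment by limma.

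For smooth muscle, 4 of 8 markers were higher and 0 lower at an unadjusted p under 0.05, with sums of 7864 to 9526 in control and 10177 to 11169 in mutant pools, and 3 of the 8 (Acta2, Cnn1 and Tagln) are also on the list of TGF-beta targets. For mesothelium, 3 of 6 markers were higher and 0 lower, with sums of 7465 to 8160 and 8599 to 9172, and Wt1 rose after adjustment (0.31, limma adjusted p = 0.0496). Of 8 cardiac markers 2 (Myh6 and Tnni3) were lower and 0 higher at an unadjusted p under 0.05, none passed after adjustment, and their summed count was 1334 to 1456 in control and 1105 to 1196 in mutant pools. Erythroid markers (0 of 6), neural markers (0 higher and 2 lower of 7) and markers of foregut, liver and thyroid (0 higher and 1 lower of 7) had medians of -0.04, -0.03 and -0.25, and the globins Hba-a1 and Hba-a2 were listed at 0 in every pool. Beside these counts stand 6.67% of all tested genes higher and 6.89% lower at that threshold, and a single gene in a list of 7 is near that share. The part of these markers in the levels of Tgfb1, Tgfb3, Tgfbr2, the Ltbp genes and the collagens was not tested.

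**Figure D5:**
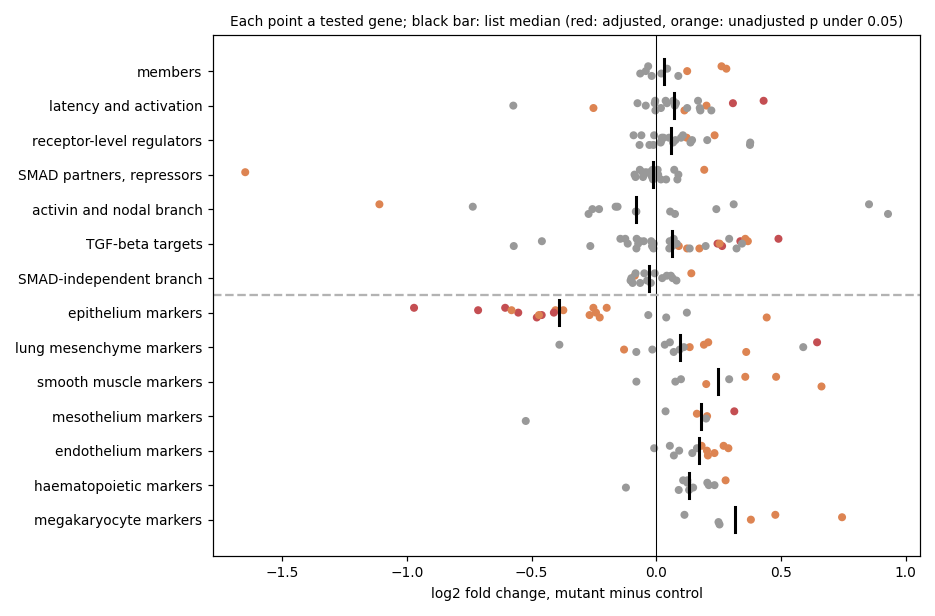
Log2 difference between mutant and control pools (horizontal axis) of each tested gene of the TGF-beta members, the 6 further pathway lists and 7 marker lists (vertical axis), with a black bar at the median of each list. The members' median was 0.03, that of the epithelium markers lay at -0.39, and those of smooth muscle, endothelium and megakaryocyte markers lay at 0.25, 0.17 and 0.32.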

How the data were processed

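RNA of pooled whole lungs was sequenced on the BGISEQ platform. Per the labels, the submitters' processing notes name Trim Galore, HISAT2, featureCounts, DESeq2 and the build mm10. Versions, strand setting and annotation were not given in the sources used here. The authors deposited 1 table in which the signal of each gene is its read count divided by a library size factor. Its log2 fold changes with their errors, test statistic (a score) and p-values are the authors' own comparison and were deposited beside it but not used.

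From the normalized counts, log2(value + 1) was compared with limma 3.58.1 in R 4.3.3 (eBayes with a variance trend, 3 against 3 pools, no block), for 17168 genes that reached 1 in 3 or more pools, and p-values were adjusted by Benjamini-Hochberg and called under 0.05. Fold changes on this scale understate changes of low genes. In all 6 libraries 100% of values fell on whole multiples of 1 unit (tolerance 0.01), which gave back whole reads for edgeR 4.0.16 and DESeq2 1.42.0 as alternatives. For control pool 3 that unit was 0.994, so close to 1 that recovery is less certain there. The tests were tried on simulated data. The members, lists and tests were chosen with earlier results of these data known. Named were all members, Rptor, per list every gene past the adjusted threshold or else up to 3 genes of lowest p, and for 2 members the 3 genes of closest profile. Genes named outside this rule are marked. A gene withheld from the text is not reported here.

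Exon lengths and gene positions are from GENCODE M21 (GRCm38), matched by symbol for 92.7% of genes. The members lie at chr7:25687002-25705077 (Tgfb1, plus strand), chr1:186622792-186705989 (Tgfb2, minus), chr12:86056745-86079041 (Tgfb3, minus), chr4:47353222-47414931 (Tgfbr1, plus), chr9:116084293-116175360 (Tgfbr2, minus), chr5:107106570-107289629 (Tgfbr3, minus), chr13:56609523-56639562 (Tgfbi, plus), chr18:76241580-76310963 (Smad2, plus), chr9:63646767-63757994 (Smad3, minus) and chr18:75367529-75395935 (Smad7, plus). Annotated transcripts on the opposite strand overlap 2.14% of the exon bases of Tgfb2 and up to 7.60% of those of Tgfb3, and a same-strand transcript overlaps 4.54% of those of Tgfbr3. For 27 genes the table shows a date in place of the symbol.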

Additional observations from a re-analysis of the deposited data

How the results depend on the processing

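Of 140 values of the 10 TGF-beta genes under 14 alternatives, 132 kept their direction and their side of the adjusted threshold, 2 (Tgfb1 without control pool 3 and by DESeq2) passed it and 6 turned direction. With a pool left out, Tgfb2 ranged from -0.0305 (without control pool 2) to 0.0877, Tgfbr1 from -0.124 to 0.0684 (without control pool 3), Tgfbi from -0.0356 (without control pool 3, and -0.0186 without mutant pool 1) to 0.113 and Smad7 from -0.0800 to 0.0815 (without control pool 3, and 0.0159 without mutant pool 2). Among other named genes the turned values lie within ranges of -0.00928 to 0.0380 for Smad4, -0.258 to 0.0260 for Ctgf, -0.0174 to 0.0685 for Pmepa1 and -0.166 to 0.139 for Skil, all as log2 differences.

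In the whole table limma called 86 genes, 8 without the variance trend and 1 to 468 when a pool was left out (1 without control pool 1 or mutant pool 3, 468 without control pool 3), and DESeq2 called 277. Of the TGF-beta genes 0 passed after adjustment, 1 by DESeq2 and 0 to 1 with a pool left out, and 3 had an unadjusted p under 0.05, 1 without the variance trend and 2 to 4 with a pool left out. On the 6 pathway lists 6 of 131 genes passed after adjustment, 0 without the trend, 3 without the filter on low values and 0 to 12 with a pool left out. The alternatives for the lists were chosen after seeing the data. The cause of these changes was not tested. With the replicate number as a block 71 genes passed in the whole table, 0 and 3 of the TGF-beta genes after and before adjustment, and 6 on the pathway lists. No pairing of pools beyond a shared number is stated in the sources used here. Deviations of same-numbered pools correlated at -0.03, 0.22 and 0.07 over 12501 genes, and not every pool correlated best with its own number. The value of 0.22, for pool 2, was the highest of any pair. Such correlations cannot exclude a shared litter, since the litter of each pool was not given. The block ended the calls of Cdh2 and Scp2 (limma adjusted p = 0.0569 for each). Upper-quartile scaling moved the median of all genes by 0.005 on the log2 scale. With 3 pools a group, a log2 difference of 0.1 in a gene as variable as Tgfbr1 was not detectable.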
